A study of Mus musculus with 27 samples.

Results

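A set of 10 integrin genes of fibroblasts was followed through 12 RNA-seq libraries of mouse embryonic fibroblasts (MEFs), the connective tissue cells that grow out when an embryo is dispersed in culture. The genes were taken by name from the table of 37310 genes. They comprise 3 beta chains (Itgb1, Itgb3 and Itgb5) and 7 alpha chains (Itgav, Itga3, Itga5, Itga6, Itga7, Itga8 and Itga11), and the table holds 17 further integrin genes. All 10 passed the filter on low counts. The libraries form 4 groups of 3, which are female wild type (WT), female Firre knockout (KO), male WT and male Firre KO. Firre is a long non-coding RNA gene of chromosome X, and the KO cells come from mice in which recombination between loxP sites removed the whole locus, the promoter included. The cells were neither treated nor given a transgene. MEFs were grown from individual mid-gestation embryos without viscera, head and limbs, and used at low passage. The labels do not say whether replicates are separate embryos, so the p-values measure the spread between these libraries, which may be partly technical.

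Integrins are the receptors by which cells hold on to the extracellular matrix, and each works as a pair of 1 alpha and 1 beta chain. Itgb1 pairs with many alpha chains, among them the fibronectin receptor chain Itga5, the laminin receptor chains Itga3, Itga6 and Itga7, the nephronectin receptor chain Itga8 and the fibrillar collagen receptor chain Itga11. Itgav pairs with Itgb1, Itgb3 and Itgb5, and these pairs bind vitronectin, fibronectin, osteopontin and latent TGF-beta. Inside the cell, talin and kindlin bind the beta tail and connect it to actin, while the start of the alpha tail clasps the beta tail and holds the receptor inactive.

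The coding stretches for these contact points show what the 10 genes have in common and where they differ. Each is 30 bases of coding sequence read from mm9 across an exon junction, so the coordinates run from the first to the last base and include the intron between. In the beta chains the capitals mark the 4 codons of the membrane-proximal turn of the tail, to which talin binds.
Itgb1 (chr8:131250084-131255949, + strand): acgggtgaaAATCCTATTTACaagagtgcc
Itgb3 (chr11:104526944-104528420, + strand): acagcaaacAACCCGCTGTATaaagaggcc
Itgb5 (chr16:33947965-33948769, + strand): atggcctcaAACCCCCTGTACagaaagccc
In the alpha chains the capitals mark the 5 codons of the membrane-proximal clasp. The fibronectin, vitronectin and nephronectin receptor chains come first, then the laminin receptor chains and the collagen receptor chain.
Itga5 (chr15:103175757-103176385, - strand): aagctcGGCTTCTTCAAACGTtccctcccc
Itgav (chr2:83643157-83643423, + strand): aggatgGGCTTTTTCAAACGTgtccgacca
Itga8 (chr2:12030802-12032604, - strand): aagtgtGGATTCTTTGATAGAgcaagacct
Itga3 (chr11:94907878-94908237, - strand): aagtgcGGCTTCTTCAAGCGAgcccgcact
Itga6 (chr2:71687561-71693937, + strand): aagtgtGGATTCTTTAAGCGCtctaggtac
Itga7 (chr10:128391125-128394703, + strand): aagctgGGATTCTTCAAGCGGgcgaagcac
Itga11 (chr9:62629854-62630461, + strand): aagctcGGTTTTTTTAAAAGTgccaagcgc
The motif lay 15 codons from the end of the coding sequence in both Itgb1 and Itgb3, and 25 in Itgb5. Among the alpha chains 17 codons followed it in Itga11 and 70 in Itga7, the shortest and the longest of these tails in the transcripts used.

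In the RNA-seq table Firre, listed under its clone name 6720401G13Rik, had 239 to 307 expected counts in the male WT libraries, 90 to 129 in the female WT libraries and 0 in all 6 KO libraries. The libraries held 42986516 to 65454660 expected counts, and every male library was deeper than every female library. Replicate 3 of male WT and of male KO stood apart from the other male libraries, with a Pearson's r of 0.991 with each other across genes and 0.986 to 0.989 with their own groups. Fibroblast markers were detected in all libraries, summing over 14 genes to 10100 to 13870 CPM, the counts scaled to library totals after TMM normalization. Vim, Col1a1 and Col1a2 made up most of this sum, whereas Dpt, Lum and Dcn averaged 0.386, 2.69 and 11.2 CPM over the 12 libraries. Macrophage markers, by contrast, summed to 44.4 to 139.9 CPM in the female libraries and 9.45 to 18.2 CPM in the male ones. In bulk RNA, fewer cells of a type cannot be told apart from less RNA per cell.

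Per length of transcript, Itgb1 stood above every other integrin. Levels between genes were compared as approximate TPM, a measure scaled for library size and for the merged exon length of the gene. Itgb1 had 2454 ± 48.6 TPM in female WT, 2201 ± 183 in female KO, 2391 ± 100 in male WT and 2311 ± 58.1 in male KO (SD, n = 3 each). It made up 93.6% to 95.6% of the TPM of all beta chains in the group means. The 10 genes together held 99.1% to 99.3% of the TPM of all 27 integrin genes.

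Behind Itgb1, the order by merged exon length was the same in all 4 groups for the next 3 genes, and none of these neighbours overlapped. Itga5 came next with 566 to 634 TPM in the group means, then Itgav with 117 to 185 and Itgb5 with 94.8 to 141. Lower in the order, neighbours were often not separated. In female WT, Itga7, Itga8, Itga11 and Itgb3 lay between 10.03 and 12.9 TPM and each overlapped the next. In male WT Itga3 overlapped both Itga6 and Itga11, while Itga6 (41.5 to 48.3 TPM) lay above Itga11 (17.5 to 40.4 TPM). In male KO these 3 genes all overlapped. Itgb3, the partner of Itgav in vitronectin binding, was thus at 9.31 to 15.4 TPM, well below Itgb5 in each group. The order depends on the length given to each gene. With the longest transcript in place of the merged exons, Itga6 stood above Itgb5 in the female groups (103 against 92.4 TPM in WT and 109 against 87.7 in KO) and below it in the male groups, while Itgb1, Itga5 and Itgav remained the top 3 in all 4.

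**Figure D1:**
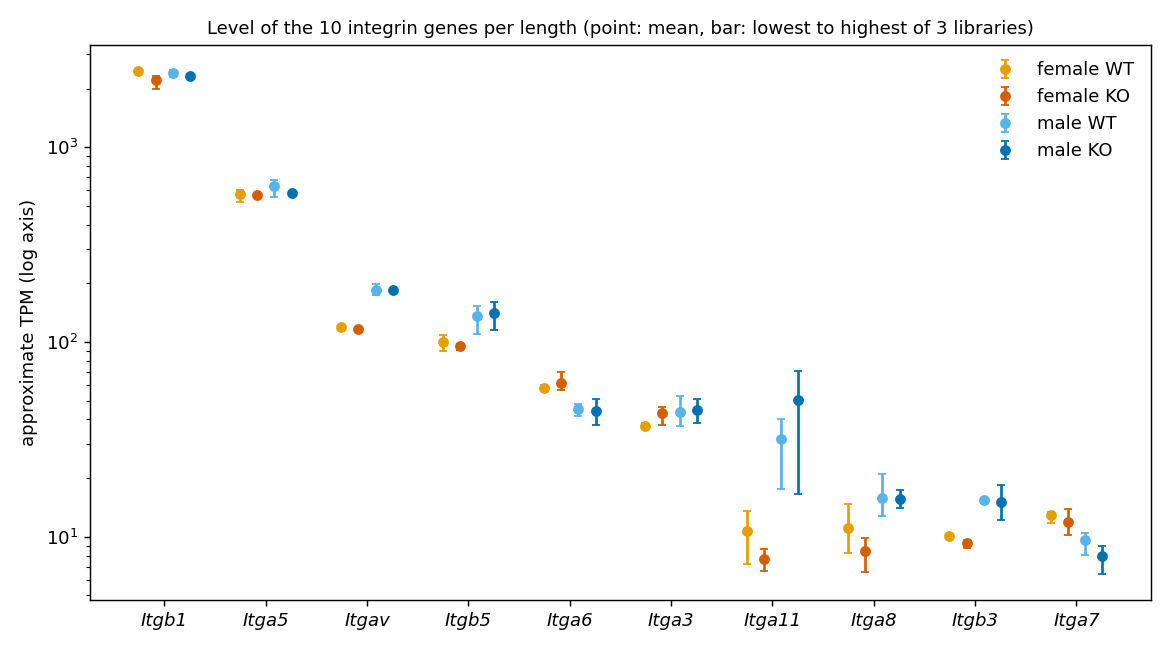
Approximate TPM (log axis) of the 10 integrin genes in the 4 groups, where points are means and bars run from the lowest to the highest of 3 libraries. By merged exon length, Itgb1, Itga5, Itgav and Itgb5 keep their order in each group, and Itga11 spans the widest range, from a mean of 7.71 TPM in female KO to 50.4 TPM in male KO.

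Which alpha chains were there for Itgb1 to pair with? Of the 12 alpha chains known to pair with it, Itga5 held most of the message, with 67.9% ± 1.68 of their summed TPM in female WT and 67.9% ± 0.834 in female KO (SD, n = 3). In male WT it held 64.2% ± 2.47, and in male KO 61.2% ± 1.75. Itgav, which also pairs with Itgb3 and Itgb5, held 14.1% ± 0.696 and 14.1% ± 0.411 in the female groups and 18.8% ± 0.886 and 19.5% ± 0.811 in the male groups. The laminin receptor chains Itga6 and Itga3 held 4.58% to 7.35% and 4.42% to 5.17% in the group means. Itga11 held 1.25% ± 0.314 in female WT and 0.927% ± 0.139 in female KO, against 3.26% ± 1.42 in male WT and 5.27% ± 3.02 in male KO. Fibronectin receptor message therefore outweighed laminin and collagen receptor message in each of the 12 libraries.

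Message for Itgb1 exceeded the sum of that for its possible partners. The summed TPM of the 12 alpha chains was 0.345 ± 0.0235 of that of Itgb1 in female WT, 0.380 ± 0.0260 in female KO, 0.413 ± 0.0338 in male WT and 0.411 ± 0.00432 in male KO. Itgav, in turn, was about as abundant as its partners Itgb3 and Itgb5 summed, with a ratio of 1.09 ± 0.0809, 1.13 ± 0.0359, 1.25 ± 0.289 and 1.2 ± 0.185 in the same order. These ratios rest on the length given to each gene. With the longest transcript in place of the merged exons, the share of Itga5 became 52.2% to 58.2%, and the ratio of Itgav to Itgb3 plus Itgb5 became 1.53 to 1.76.

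**Figure D2:**
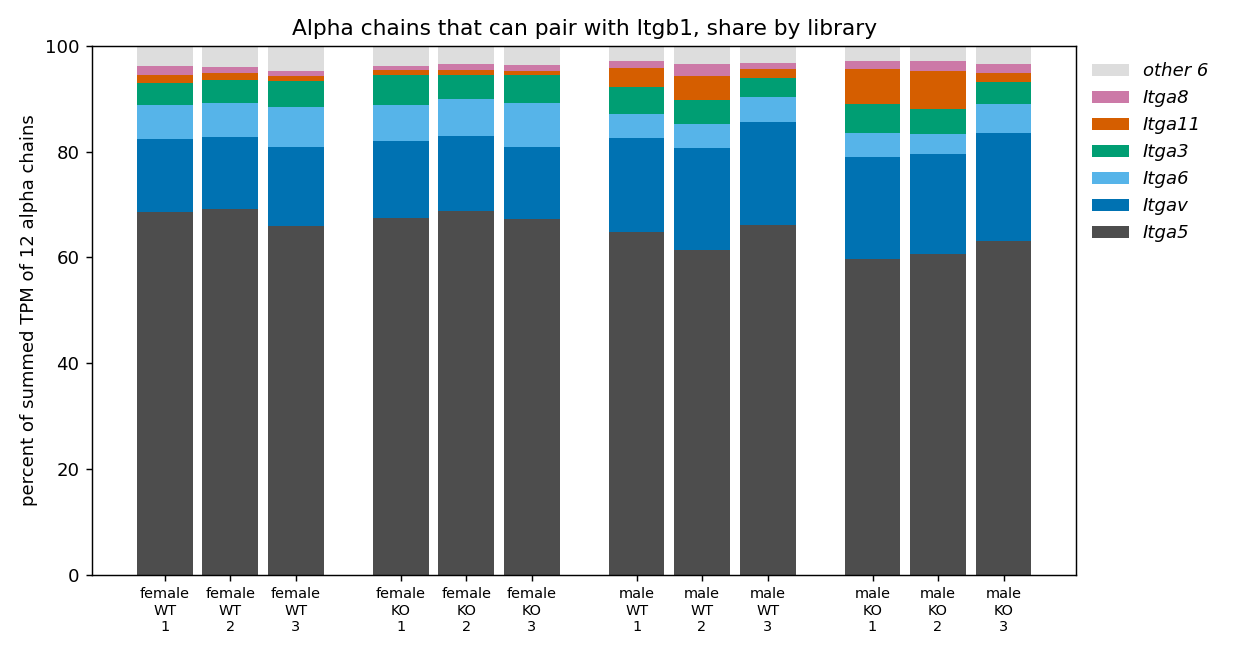
Share of each alpha chain in the summed approximate TPM of the 12 alpha chains that can pair with Itgb1 (percent), 1 bar per library. Itga5 fills 59.8% to 69.2% of each bar, and Itga11 is widest in replicates 1 and 2 of the male KO, up to 7.29%.

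Firre loss was compared with WT within each sex, the contrast for which the cells were made. None of the 10 integrin genes was called in female or in male MEFs. A call needed a log2 fold change beyond 1 in size together with an adjusted p under 0.01, from edgeR's quasi-likelihood test adjusted by Benjamini-Hochberg over 15387 genes. Over all genes 0.0065% were called in each sex, which was Firre itself. At an adjusted p under 0.05 with no fold limit the count was also 0 of 10 in both sexes, against 0.013% of all genes in female and 0.0065% in male MEFs, and DESeq2 gave 0 of 10 as well. At an unadjusted p under 0.05 it was 0 of 10, where 7.55% of all genes in female and 2.06% in male MEFs passed.

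For the abundant chains the KO comparison was tight. Itgb1 had 3607, 3534 and 3554 CPM in female WT and 3366, 2952 and 3471 CPM in female KO. Every female KO library was below every female WT library, with a log2 fold change of -0.13 ± 0.06 (SE) and an adjusted p of 0.665. In male MEFs it had 3295, 3425 and 3535 CPM in WT and 3382, 3378 and 3105 CPM in KO, which overlapped, with a log2 fold change of -0.06 ± 0.06 (adjusted p = 1). Averaged over the sexes, the difference in Itgb1 was -0.09 ± 0.04 with an unadjusted p of 0.0484 and an adjusted p of 0.796 by edgeR. Itgb1 was the sole gene of the 10 under 0.05 before adjustment, a level that 6.24% of all genes reached. After adjustment 0 of 10 were under 0.05 on average over the sexes, against 0.0195% of all genes.

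Itgav, its vitronectin-binding partner, was the most precisely measured. It had 469, 454 and 442 CPM in female WT and 464, 449 and 458 in female KO, with a log2 fold change of 0.01 (95% interval -0.09 to 0.10). In male MEFs the values were 689, 659 and 742 CPM in WT and 694, 694 and 685 in KO, with a log2 fold change of -0.01 (95% interval -0.11 to 0.08). The WT and KO values overlapped in both sexes. Itga5, the fibronectin receptor chain, had 945, 944 and 799 CPM in female WT, 883, 894 and 922 in female KO, 1025, 857 and 1035 in male WT and 881, 912 and 866 in male KO. Its log2 fold changes were 0.01 (95% interval -0.16 to 0.18) in female and -0.13 (-0.30 to 0.04) in male MEFs.

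Among the less abundant chains, the intervals were wider. Itga3, a laminin receptor chain, had 73.2, 76.8 and 76.7 CPM in female WT and 95.2, 77.3 and 95.8 in female KO. All 3 KO libraries were above all 3 WT libraries, by as little as 77.3 against 76.8 CPM, and the log2 fold change was 0.24 ± 0.14 (adjusted p = 0.724). In male MEFs Itga3 had 106.1, 81.9 and 73.6 CPM in WT and 103, 91.1 and 74.2 in KO, with a log2 fold change of 0.04. Itga8 had a log2 fold change of -0.35 (95% interval -0.89 to 0.18) in female and -0.03 (-0.55 to 0.49) in male MEFs. For Itga11 the intervals ran from -1.54 to 0.67 and from -0.35 to 1.70, so they included a fall past the fold threshold in female MEFs and a rise past it in male MEFs, which this spread cannot resolve. Without overlap between WT and KO were 3 of the 10 genes in female MEFs (Itgb1 and Itgb3 lower, Itga3 higher), against 19.1% of all genes (8.2% lower and 10.9% higher), and 0 of 10 in male MEFs, against 5.29%.

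The KO effect was also compared between the sexes, by the difference of the log2 fold changes. None of the 10 passed (0% of all genes were called), and each adjusted p was 1. Itga11 had the widest such difference, -1.11 ± 0.68 (female minus male, unadjusted p = 0.132). The median log2 fold change of the 10 genes was -0.06 in female and -0.04 in male MEFs, beside a median of 0 over all genes in both.

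**Figure D3:**
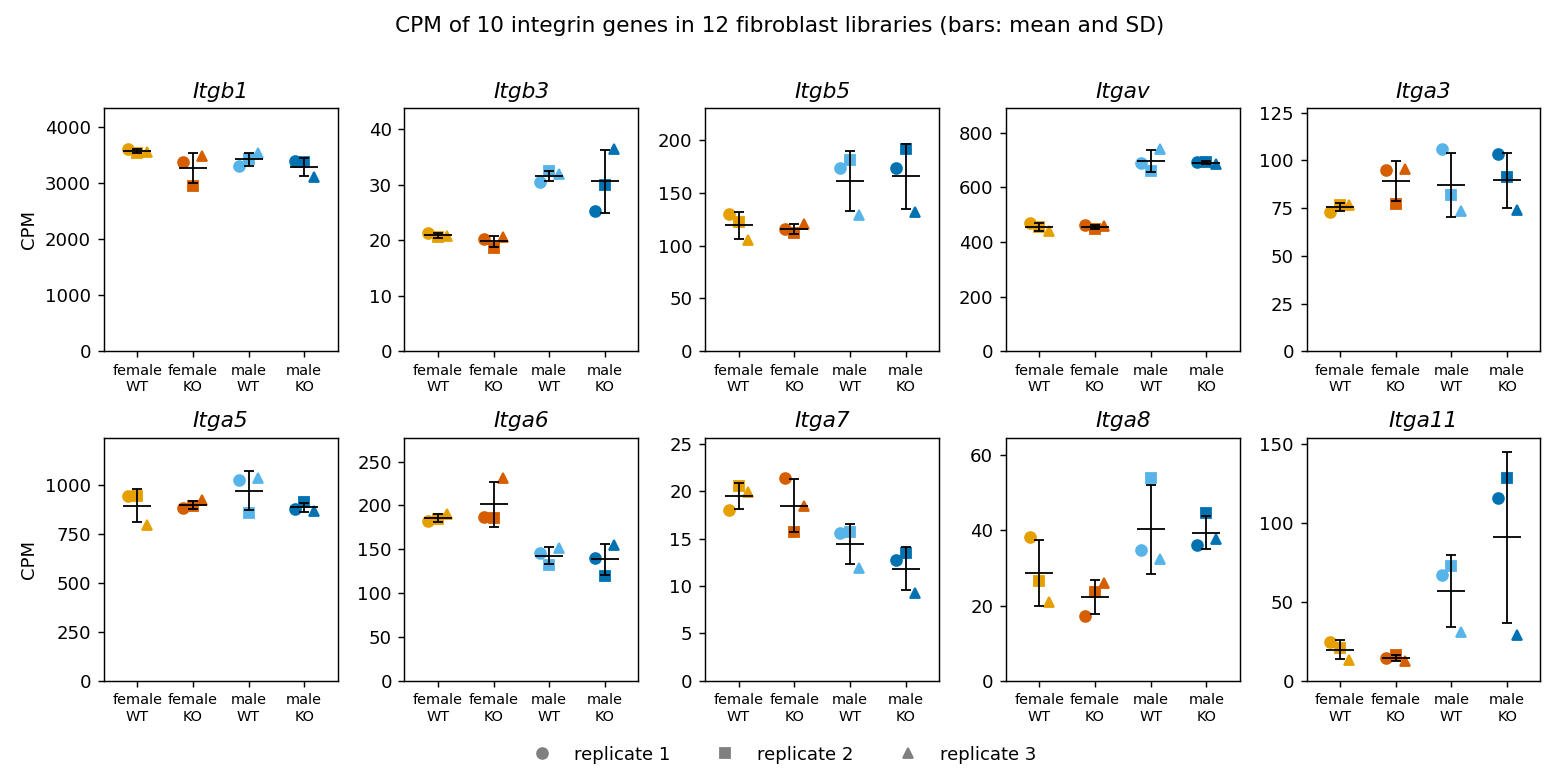
CPM of each integrin gene in the 12 libraries, with symbols for the replicate number and bars for the mean and SD of 3 libraries. WT and KO overlap in all 10 genes in male MEFs, with means of 57.01 and 91.01 CPM in Itga11, while Itgav and Itgb3 lie lower in every female library than in every male library, and replicate 3 of both male groups lies low in Itga11, at 31.1 and 28.8 CPM.

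Integrin levels differed between the female and the male MEFs, in both genotypes. Itgav, Itgb3, Itgb5 and Itga11 were lower in female MEFs, and the laminin receptor chains Itga6 and Itga7 were higher. Itgb1, Itga3 and Itga5 did not pass. At an adjusted p under 0.05, 6 of 10 genes passed in WT (2 higher, 4 lower), against 38.7% of all genes (18.9% higher and 19.8% lower), and 7 of 10 in KO (2 higher, 5 lower), against 38.7% (18.9% and 19.7%). All 6 genes that passed in WT passed in KO in the same direction. The WT and KO comparisons share no library, although the fit gave them a common estimate of the spread. With the fold threshold and an adjusted p under 0.01, 0 of 10 were called in WT (4.54% of all genes) and 1 of 10, Itga11, in KO (3.89%). The median log2 fold change of the 10 was -0.32 in WT and -0.26 in KO, beside -0.01 and 0.00 over all genes. Sex, embryo of origin and library depth cannot be told apart in this comparison.

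Itgav carried the most firmly measured of these differences. The 6 female libraries had 442 to 469 CPM and the 6 male libraries 659 to 742, without overlap. Its log2 fold change was -0.62 ± 0.04 in WT (adjusted p = 8.62e-06, edgeR) and -0.60 ± 0.04 in KO (adjusted p = 9.76e-06). The gene shares 634 exon bases with the antisense gene Gm13684, whose reads cannot be told apart without strand. Gm13684 was listed at no more than 0.643 CPM in any library, a value that rests on the same sharing of reads. The part of Gm13684 in the counts of Itgav was not tested. Itgav lies on the plus strand at chr2:83564554-83647073 (mm9).

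Both vitronectin-binding beta partners were lower in the same lines. Itgb3 had 21.3, 20.5 and 20.7 CPM in female WT and 20.2, 18.6 and 20.5 in female KO. In male WT it had 30.5, 32.4 and 31.8 CPM, and in male KO 25.3, 30 and 36.4. The female and male libraries did not overlap in either genotype, and the log2 fold changes were -0.60 ± 0.10 (adjusted p = 0.00126) and -0.63 ± 0.10 (adjusted p = 0.000982, edgeR). For Itgb5 the female libraries had 105.2 to 130.3 CPM and the male libraries 173 to 192, except replicate 3 of both male groups, with 129 and 132 CPM. Its differences were -0.43 ± 0.15 in WT (adjusted p = 0.0364) and -0.52 ± 0.15 in KO (adjusted p = 0.0166), and the groups overlapped in WT only. Itgb5 lost its call in WT without male WT replicate 1 or 2 or female WT replicate 2 or 3, and in KO without male KO replicate 1 or 2 or female KO replicate 2, as it did in WT with DESeq2.

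The other receptors for the same kind of ligand did not all follow. Itga8 had 38.2, 26.6 and 21.0 CPM in female WT and 34.7, 53.8 and 32.4 in male WT, which overlapped, with a log2 fold change of -0.50 ± 0.24 (adjusted p = 0.123). In KO it had 17.3, 23.7 and 26.1 CPM in female and 36.1, 44.5 and 37.7 in male MEFs, a log2 fold change of -0.82 ± 0.24 (adjusted p = 0.0206) that did not pass without male KO replicate 2 or female KO replicate 1. Itga5 differed by -0.12 (95% interval -0.29 to 0.05) in WT and 0.02 (-0.15 to 0.19) in KO. Itgb1 differed by 0.06 (-0.07 to 0.19) and -0.01 (-0.14 to 0.12). For these abundant chains of the fibronectin receptor, the intervals left out a 1.5-fold difference in either direction.

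The collagen receptor chain Itga11 showed the widest span of the 10 genes, 2.40 on the log2 scale between its group means. It had 24.8, 20.8 and 12.96 CPM in female WT and 14.5, 16.1 and 12.5 in female KO. In male MEFs it had 66.9, 73.0 and 31.1 CPM in WT and 115.9, 128 and 28.8 in KO. Every female library was thus below every male library, and within the male groups replicate 3 held 0.312 of the mean of the other 4. The log2 fold change between female and male was -1.55 ± 0.49 in WT (adjusted p = 0.027) and -2.66 ± 0.51 in KO (adjusted p = 0.00214, edgeR). Without both male replicates 3, chosen after seeing the data, the WT value was -1.85 (adjusted p = 0.000111) and the KO value -3.09 (adjusted p = 1.39e-05). Without female KO replicate 1 or 3, the KO difference no longer met the threshold of 0.01 (adjusted p = 0.011 and 0.0118), and without male WT replicate 1 or 2 or female WT replicate 2 or 3 the WT difference did not pass 0.05.

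Laminin receptor chains went the other way or did not pass. Itga6 had 182 to 191 CPM in female WT and 186 to 231 in female KO, against 132 to 151 in male WT and 120 to 155 in male KO. No female library overlapped a male one, and the log2 fold changes were 0.38 ± 0.10 (adjusted p = 0.0123) and 0.54 ± 0.10 (adjusted p = 0.00197, edgeR). Itga7, best known from muscle, had 18, 20.6 and 19.97 CPM in female WT and 21.4, 15.7 and 18.4 in female KO, and in male MEFs 15.6, 15.7 and 11.9 in WT and 12.7, 13.5 and 9.24 in KO. Its differences were 0.44 ± 0.16 (adjusted p = 0.045) and 0.64 ± 0.16 (adjusted p = 0.00808), with no overlap within either genotype. In WT Itga7 passed an adjusted p of 0.05 in only 10 of 20 alternatives. It did not pass with DESeq2, without the filter on low counts, and without any 1 of the 6 WT libraries, male KO replicate 1 or female KO replicate 3. Itga3 differed by -0.21 (95% interval -0.52 to 0.11) in WT and 0.00 (-0.32 to 0.31) in KO.

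Markers of other cell types moved with some of these. Of 9 tested skeletal muscle markers, 5 in WT and 6 in KO were higher in female MEFs and 0 lower at an adjusted p under 0.05, where 18.9% of all genes were higher in each genotype, while their summed level was 89.1 to 147.8 CPM in female and 82.2 to 147.9 CPM in male libraries, most of it Acta1 and Des. Myod1 and Myog, which define the lineage, averaged 0.523 and 2.63 CPM in female WT and 0.0675 and 0.130 CPM in male WT. Female WT replicate 3 carried most of this, with 1.22 and 5.86 CPM, against 0.257 and 1.19 in replicate 1 and 0.0884 and 0.840 in replicate 2. Acta1 went the other way, with 70.5 CPM in female and 101 CPM in male WT, whereas Des had 27.9 and 22.3 CPM. Epithelial markers, whose cells rest on laminin, passed higher in 7 of 7 in WT and 2 of 7 in KO, beside the same 18.9%. Their summed level was 23.4 to 71.99 CPM in female and 6.41 to 16.5 CPM in male libraries. The highest sum was that of female WT replicate 3, against 27.4 and 38.1 CPM in female WT replicates 1 and 2. Fibroblast markers summed to 10100 to 12070 CPM in female and 11910 to 13870 CPM in male WT, which overlapped. In KO the fibroblast sums were 10120 to 11930 CPM in female and 12110 to 13520 CPM in male MEFs, without overlap. Summed smooth muscle and cartilage markers overlapped between female and male libraries within each genotype. Neural markers did not, summing to 886.3 to 926.9 CPM in female and 713 to 849.6 CPM in male WT, and to 811.9 to 1023 CPM in female and 709.5 to 752.2 CPM in male KO, most of it Nes and Ncam1. Likewise, endothelial markers summed to 25.8 to 36.6 CPM in female and 17.9 to 24.4 CPM in male libraries, most of it Kdr. Emcn went the other way in WT, with 2.6 CPM in female and 3.01 CPM in male MEFs. The part of these cells in the integrin differences was not tested.

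Across the 20 other settings and left-out libraries tried, Itgav, Itgb3 and Itga6 passed an adjusted p of 0.05 in every one in WT, and these 3 with Itga7 and Itga11 in every one in KO. The WT count fell from 6 to 3 without male WT replicate 1, without female WT replicate 2 or without female WT replicate 3, which leaves 2 libraries in that arm. Without overlap between female and male were 5 of 10 genes in WT (51.9% of all genes) and 7 of 10 in KO (50.2%), and the same 5 were among the 7.

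**Figure D4:**
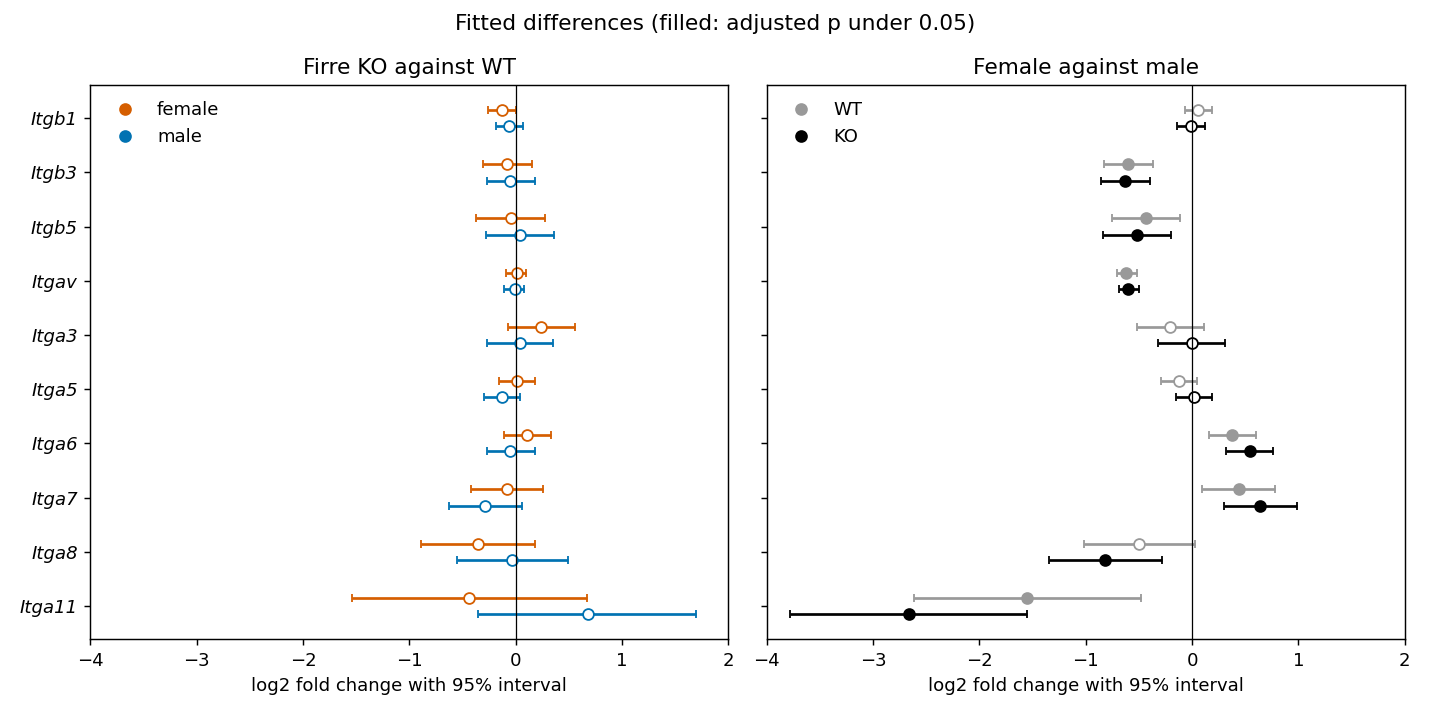
Log2 fold changes with 95% intervals of the 10 integrin genes for Firre KO against WT (left) and female against male (right), with filled points for an adjusted p under 0.05. On the left no point is filled, and on the right Itgav and Itgb3 lie near -0.6 in both genotypes, with -0.62 and -0.60 in WT, while Itga6 and Itga7 lie above 0.

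Where a promoter entry was at hand, the 250 bases before the transcription start were read for 7 of the 10 genes (RefSeq, GRCm38.p6, a later build than that of the counts). The 3 shown belong to genes lower in the female lines in both genotypes, and the capitals mark GGGCGG or its reverse complement CCGCCC, the core of a GC box.
Itgav (chr2:83724147-83724396, + strand): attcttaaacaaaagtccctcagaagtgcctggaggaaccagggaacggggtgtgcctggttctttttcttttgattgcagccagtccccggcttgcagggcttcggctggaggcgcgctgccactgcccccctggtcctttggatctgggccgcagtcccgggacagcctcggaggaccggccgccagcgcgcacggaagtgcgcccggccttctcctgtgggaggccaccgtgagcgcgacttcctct
Itgb5 (chr16:33829415-33829664, + strand): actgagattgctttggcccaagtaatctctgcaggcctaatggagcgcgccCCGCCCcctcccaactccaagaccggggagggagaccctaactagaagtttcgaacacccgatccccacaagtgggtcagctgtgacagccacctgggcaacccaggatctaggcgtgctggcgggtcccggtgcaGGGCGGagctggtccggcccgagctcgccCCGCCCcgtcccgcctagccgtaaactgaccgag
Itga11 (chr9:62677605-62677854, + strand): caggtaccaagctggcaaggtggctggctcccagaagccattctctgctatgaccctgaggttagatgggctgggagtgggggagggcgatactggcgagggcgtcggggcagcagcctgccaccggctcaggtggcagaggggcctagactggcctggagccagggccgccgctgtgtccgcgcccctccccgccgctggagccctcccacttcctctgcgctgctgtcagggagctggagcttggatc
Itgb5 held 3 such runs and Itgav and Itga11 held 0. Of the 7 genes, 4 held at least 1 (Itgb1, Itgb5, Itga3 and Itga5), and 32.7% of 32851 promoters of the same length held at least 1. The AP-1 motif TGACTCA, on either strand, occurred in 0 of these 7 genes' windows and in 4.46% of all promoters, and TATAAA in 0 of the 7 and 12.4% of all. These are matches of letters in a window only.

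The pattern of Itga11 over the 12 libraries was nearest to that of Fmod, a collagen-binding proteoglycan of the matrix. Likeness was the root mean square difference of log2 CPM after centring each gene on its own mean, which was 0.35 for Fmod, 0.39 for Fos, 0.45 for Dkk3, 0.45 for Itih2 and 0.47 for Smoc1. Fmod averaged 4.67 and 4.09 CPM in female WT and KO, and 11.9 and 20.5 CPM in male WT and KO. Among the 10 genes, Itgav was nearest to Itgb3 (0.13) and Itgb1 to Itga5 (0.12). No member lay near Itga11, for which Itga8 was closest at 0.86. The libraries share their depth and line with these genes, so the likeness is a description.

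Of the 17 other integrin genes 13 could be tested, and none was called for the KO in either sex, against 0.0065% of all genes in each. Itga1, a second collagen receptor chain, had 20.3, 15.4 and 14.9 CPM in female WT and 11.7, 12.6 and 11.2 in female KO, without overlap, and a log2 fold change of -0.51 ± 0.12 with an adjusted p of 0.492. In male MEFs it was at 0.03, and the difference between these was -0.54 with an adjusted p of 1. Between the sexes Itga1 differed by -0.19 in WT (adjusted p = 0.22) and by -0.73 in KO (adjusted p = 0.000774, edgeR). Between the sexes, 4 of the 13 were called in WT and 4 in KO, against 4.54% and 3.89% of all genes. Itgam, Itgb2 and Itgal, which form the leukocyte integrins, were higher in female MEFs by 2.40, 2.24 and 2.13 in WT and by 2.52, 2.07 and 2.41 in KO on the log2 scale. They reached at most 6.71 CPM, and the macrophage markers Lyz2 and Csf1r moved alongside, with 28.1 and 14.7 CPM in female WT against 2.84 and 2.71 in male WT. The list of 11 tested macrophage markers holds Itgam itself. Of the other 10, 9 in WT and 10 in KO were higher in female MEFs at an adjusted p under 0.05, against 18.9% of all genes in each. Itga10, a further collagen receptor chain, was lower by -1.38 ± 0.23 (adjusted p = 0.00104) and -1.06 ± 0.23 (adjusted p = 0.00432, edgeR) with 0.967 and 1.23 CPM in female WT and KO against 2.54 and 2.57 CPM in male WT and KO.

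The remaining integrins with at least 1 CPM in some group were modest. Itga4 averaged 41.6 and 35.6 CPM in female WT and KO and 30.3 and 24.8 CPM in male WT and KO, and did not pass in either genotype. Itga9 stood at 14.2 to 16.3 CPM in the group means and did not pass. The platelet chain Itga2b was lower in female MEFs by -0.71 ± 0.16 in WT (adjusted p = 0.00565) and -0.53 ± 0.16 in KO (adjusted p = 0.0234). Itga2 and Itgb8 were higher in female WT by 0.97 and 0.80, at adjusted p-values of 0.0481 and 0.0488, and did not pass in KO. Itgb4, which pairs with Itga6 in epithelia, averaged 1.02 to 2.18 CPM and did not pass.

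Among 30 integrin ligands, 29 were tested and 0 passed an adjusted p under 0.05 for the KO in either sex. Over all genes, 0.013% passed in female and 0.0065% in male MEFs. The medians of the ligands were -0.07 and -0.03 on the log2 scale. Between the sexes 15 of 29 passed in WT (5 higher, 10 lower in female) and 15 of 29 in KO (4 higher, 11 lower), beside the 38.7% of all genes. Osteopontin (Spp1), a ligand of Itgav with Itgb3 or Itgb5, was the 1 ligand that met both the fold threshold and an adjusted p under 0.01. The laminin chains Lama3 and Lamc3, named after their values were seen, differed by 2.59 and 1.51 in WT (adjusted p = 0.0133 and 0.0137, edgeR) and by 0.29 and 1.23 in KO (adjusted p = 0.761 and 0.0353). Spp1 had 86.5 to 109 CPM in female WT and 105.1 to 135.7 in female KO, against 383 to 416 in male WT and 379 to 540.5 in male KO, log2 differences of -2.04 (adjusted p = 5.66e-06) and -1.94 (adjusted p = 7.98e-06, edgeR). Nephronectin (Npnt), the ligand of Itga8, was lower by -0.69 and -0.95, and is named after its values were seen. Thbs1 and Fn1, the most abundant ligands, averaged 13480 and 8684 CPM over the 12 libraries, and Fn1 differed by -0.43 (adjusted p = 0.054) in WT and -0.32 (adjusted p = 0.14) in KO.

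Inside the cell, adaptors connect the beta tails to actin. Of 16 adaptor genes (talins, kindlins, vinculin, actinins and others) 0 passed an adjusted p under 0.05 for the KO. Over all genes, 0.013% passed for the KO in female and 0.0065% in male MEFs. Between the sexes 5 adaptors passed in WT (4 higher, 1 lower in female) and 6 in KO (5 higher, 1 lower), beside the 38.7% of all genes. Fermt3, the kindlin of blood cells, was the 1 that met both thresholds in WT, at 2.03 (adjusted p = 0.00282, edgeR), and averaged 2.13 CPM in female WT. Fermt1, the kindlin of epithelia, also named after its values were seen, was at 3.02 in WT with an adjusted p of 0.0701. Actn1 and Actn4, the most abundant, differed by 0.07 and -0.02 in WT. In the group of integrin-linked kinase, its partners and focal adhesion kinases, 0 of 11 passed for the KO, beside the same small shares of all genes. Between the sexes 3 of this group passed in WT and 5 in KO, among them Ilk at 0.32 and 0.33. Parva differed by 0.13 in WT (adjusted p = 0.143) and by 0.18 in KO (adjusted p = 0.0423), and the difference between these was 0.06 with an adjusted p of 1 by edgeR. Of 4 inhibitors of activation, 3 were lower in female MEFs in both genotypes, including Flna, which competes with talin for the beta tail, at -0.25 and -0.19, where 19.8% and 19.7% of all genes were lower. Of 8 lateral membrane partners 0 passed for the KO, again beside those small shares. Between the sexes 2 lateral partners passed in WT and 4 in KO, among them Cav1 at 0.50 in both, whereas Cd63 differed by -0.02 and -0.03. For the kinases and lateral partners too, the share of all genes that passed between the sexes was 38.7% in each genotype. With lists this short the counts are given as a description.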

How the data were processed

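RNA-seq of 12 MEF libraries was analysed. The authors aligned reads to mm9 by Bowtie 2, ran RSEM 1.2.29 and deposited its unscaled expected counts for each gene. In a library, 14.7% to 16.8% of them are not whole. Strand use is not given in the sources used here. RSEM shares ambiguous reads, and Itgav, Itga6, Itga8, Itga11 and Itgb3 had fractional counts.

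After rounding, counts went into a quasi-likelihood fit of edgeR 4.0.16 under R 4.3.3, with TMM scaling, filterByExpr, 1 mean per sex and genotype, 8 residual degrees of freedom and Benjamini-Hochberg adjustment over 15387 genes. The thresholds were a log2 fold change beyond 1 in size with an adjusted p under 0.01, and, as the second, an adjusted p under 0.05 alone. CPM used TMM-scaled totals. On simulated data for 15194 genes, a 4-fold change was called in 200 of 200 changed genes and in 1 other. DESeq2 1.42.0 and the settings of the closing section were alternatives. All 10 members, other integrins from 1 CPM in a group, and, per gene list, called or the 2 most abundant genes were named. Members and lists were chosen with earlier results of these data known. Hi-C and ChIP-seq were not analysed here. Depth limits the precision of low genes.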

Additional observations from a re-analysis of the deposited data

How the results depend on the processing

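The 0 of 10 integrin genes passing for the KO, in either sex, held under all alternatives, and DESeq2 gave 0 too. Over all genes, the KO count changed from 1 to 0 in female and in male MEFs with at least 10 counts in every library, which removes Firre (also 0 on average over the sexes), with only the libraries compared, and with a replicate block. At an adjusted p under 0.05 it was 2 in female MEFs and 3 on average, and DESeq2 called 4 in female, 2 in male, 3 on average and 1 for the difference between the sexes. Between the sexes, an adjusted p under 0.05 without a fold limit took the gene counts from 698 and 599 to 5953 and 5949, and the integrin counts to 6 and 7; only the libraries compared gave 370 genes in KO. Without male WT replicate 1 the WT count was 432 genes. It ranged from 432 to 763 over left-out libraries, and in KO from 329 to 621, with 329, 342 and 376 without male KO replicate 1, male KO replicate 2 and female KO replicate 1. The integrin count ranged from 0 to 1 in both genotypes with the fold threshold, and in WT from 3 to 6 without it; Itga11 was called in WT without male KO replicate 3 and without both male replicates 3 (1 of 10, a setting chosen after seeing the data).

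Same-numbered libraries were correlated on what was left of log2 CPM after subtracting each gene's group mean. The correlations were -0.16 to -0.12 between female WT and KO, and 0.097, 0.216 and 0.333 between male WT and KO. On this measure male WT replicate 1 correlated more with KO replicate 2 (0.136) than with its own number. The labels give no source for the numbers, which were not treated as pairs, and whether same-numbered male libraries share a batch was not tested. With a replicate block in the 6 male libraries alone, chosen after seeing the data, 0 genes and 0 of 10 integrin genes were called for the KO. With the replicate block, 0 genes were called in female and 0 in male MEFs, 1 integrin gene (Itga11, -1.5) between the sexes in WT, and Itgb5 averaged over the sexes was 0.00 and Itga3 between the sexes in KO 0.01, both of opposite sign to before; the block moved no count of calls between the sexes over all genes by more than 1.5 times.

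Signs turned only in values close to 0, none of which passed. Itga3 between the sexes in KO was 0.00 with DESeq2, with DESeq2 size factors, with at least 10 counts and with only the libraries compared. Itgav and Itga5 in female KO and Itgav in the difference between the sexes were -0.01 each with library size alone. Without both male replicates 3, the male KO effect was 0.01 in Itgb1 and 0.04 in Itgav, the averaged effect 0.02 in Itgav, and the difference between the sexes -0.04 in Itgav and 0.11 in Itgb3. Over left-out libraries, the female KO effect ranged from -0.07 to 0.05 in Itga5, -0.19 to 0.03 in Itga7, -0.01 to 0.03 in Itgav and -0.13 to 0.02 in Itgb5. The male effect ranged from -0.08 to 0.20 in Itga3, -0.14 to 0.05 in Itga6, -0.17 to 0.23 in Itga8, -0.05 to 0.04 in Itgav, -0.19 to 0.07 in Itgb3 and -0.10 to 0.18 in Itgb5. The averaged effect ranged from -0.05 to 0.33 in Itga11, -0.02 to 0.08 in Itga6, -0.02 to 0.02 in Itgav and -0.07 to 0.07 in Itgb5. The difference in KO effect ranged from -0.03 to 0.06 in Itgav, -0.15 to 0.11 in Itgb3 and -0.22 to 0.05 in Itgb5, and that between the sexes in KO from -0.12 to 0.11 in Itga3 and -0.06 to 0.05 in Itgb1. The cause was not tested.

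With the longest transcript as length, the 12 alpha chains over Itgb1 came to 0.376, 0.416, 0.450 and 0.450 (female WT, female KO, male WT, male KO), Itgav over Itgb3 plus Itgb5 to 1.53, 1.58, 1.76 and 1.69, the share of Itga5 to 58.2%, 57.96%, 54.99% and 52.2% and that of Itgav to 18.4%, 18.3%, 24.5% and 25.3%. Ranks by TPM were kept by 6, 6 and 8 of 10 genes in female WT, female KO and male KO, and over left-out libraries by 8 to 10 in female WT, female KO and male WT and 5 to 10 in male KO. The coefficient of variation was 0.114 among typical genes. Within groups, that of CPM was 11.4% to 30.7% in Itga8 and 12.4% to 59.6% in Itga11. With 3 libraries a group, KO changes inside the intervals of these genes could not be resolved. For Itga11 the intervals reached past the fold threshold.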
